A study of Mus musculus with 12 samples.

Results

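The 35 genes described here are markers of T cells and natural killer (NK) cells, named in a fixed list and matched by gene symbol in the deposited expression table of 19726 genes. All 35 were found and all 35 passed the filter on low counts. They were measured by RNA sequencing in mouse lung, in 4 groups of 3 libraries. The controls (titled A0) received no treatment, and the AOS group (A10) received alginate oligosaccharides, short sugar chains cut from a seaweed polysaccharide, at 10 mg/kg for 5 weeks. The busulfan group (BA0 in the titles, B0 in the design text) received 1 dose of 40 mg/kg of busulfan, an alkylating drug that crosslinks DNA and clears bone marrow. The combined group (BA10) received busulfan once, at a dose the design text does not repeat for it, followed by the same 5 weeks of AOS. The labels write the strain of all groups as IRC, name no genetic change, and give neither age nor sex. They do not say whether the 3 libraries of a group came from 3 animals, so p-values measure the spread between these libraries, which may in part be technical. In the labels the tissue reads "Cells" and the titles read lung. Surfactant, airway, alveolar and endothelial transcripts of the lung (14 markers) summed to between 43656 and 78376 CPM (counts scaled to a common library size) in each library.

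T cells recognise antigen through a receptor whose signal is carried by the CD3 chains and the kinases Lck and Zap70. Naive T cells circulate between blood and lymphoid tissue and depend on interleukin 7, whereas effector T cells and NK cells carry granules of perforin and granzymes that kill target cells. NK cells have no rearranged receptor and instead balance activating and inhibitory receptors, many of them encoded side by side in the NK gene complex. The lung holds all of these cells, in its vessels and in its tissue. In whole tissue, fewer cells of a type and less RNA per cell cannot be told apart.

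The members were divided by role into 7 genes of the T cell receptor complex and its coreceptors, 6 of the T cell surface and its signalling, 6 of naive and memory T cells, 3 regulatory and costimulatory genes, 7 effector and cytotoxic genes and 6 NK receptors. Several lie close together in the genome (mm10, RefSeq annotation of GRCm38). Cd3g (44969572 to 44980431), Cd3d (44981769 to 44987052) and Cd3e (44998735 to 45009663) lie side by side on chromosome 9. Cd28 (60746388 to 60773359), Ctla4 (60909025 to 60915832) and Icos (60960773 to 61000322) share a stretch of chromosome 1. Chromosome 6 holds 9 members, among them 5 genes of the NK gene complex, from Klrb1c (128778485 to 128788641) to Klra8 (130115226 to 130129898).

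All members were modestly expressed, at 3 to 669 counts in a library of 16209221 to 17168764 counts. Per length, in the authors' FPKM and over all 12 libraries, Gzma, which encodes the granule protease granzyme A, was highest at 31.9 ± 11.6 FPKM (SD, n = 12). Cd2, an adhesion receptor of T and NK cells, followed at 12.6 ± 2.95 FPKM, and Tcf7, a transcription factor of naive and memory T cells, at 11.5 ± 1.91 FPKM. Cd2 and Tcf7 differed by less than their spread. The lowest levels were those of Eomes (0.818 ± 0.318 FPKM), a transcription factor of NK and effector cells, Bcl11b (0.622 ± 0.152 FPKM), which maintains T cell identity, and Foxp3 (0.306 ± 0.0789 FPKM), the transcription factor of regulatory T cells. From Klrd1, at 4.38 ± 1.64 FPKM, to Klre1, at 2.53 ± 1.13 FPKM, 11 members held neighbouring ranks with differences below their spread.

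**Figure D1:**
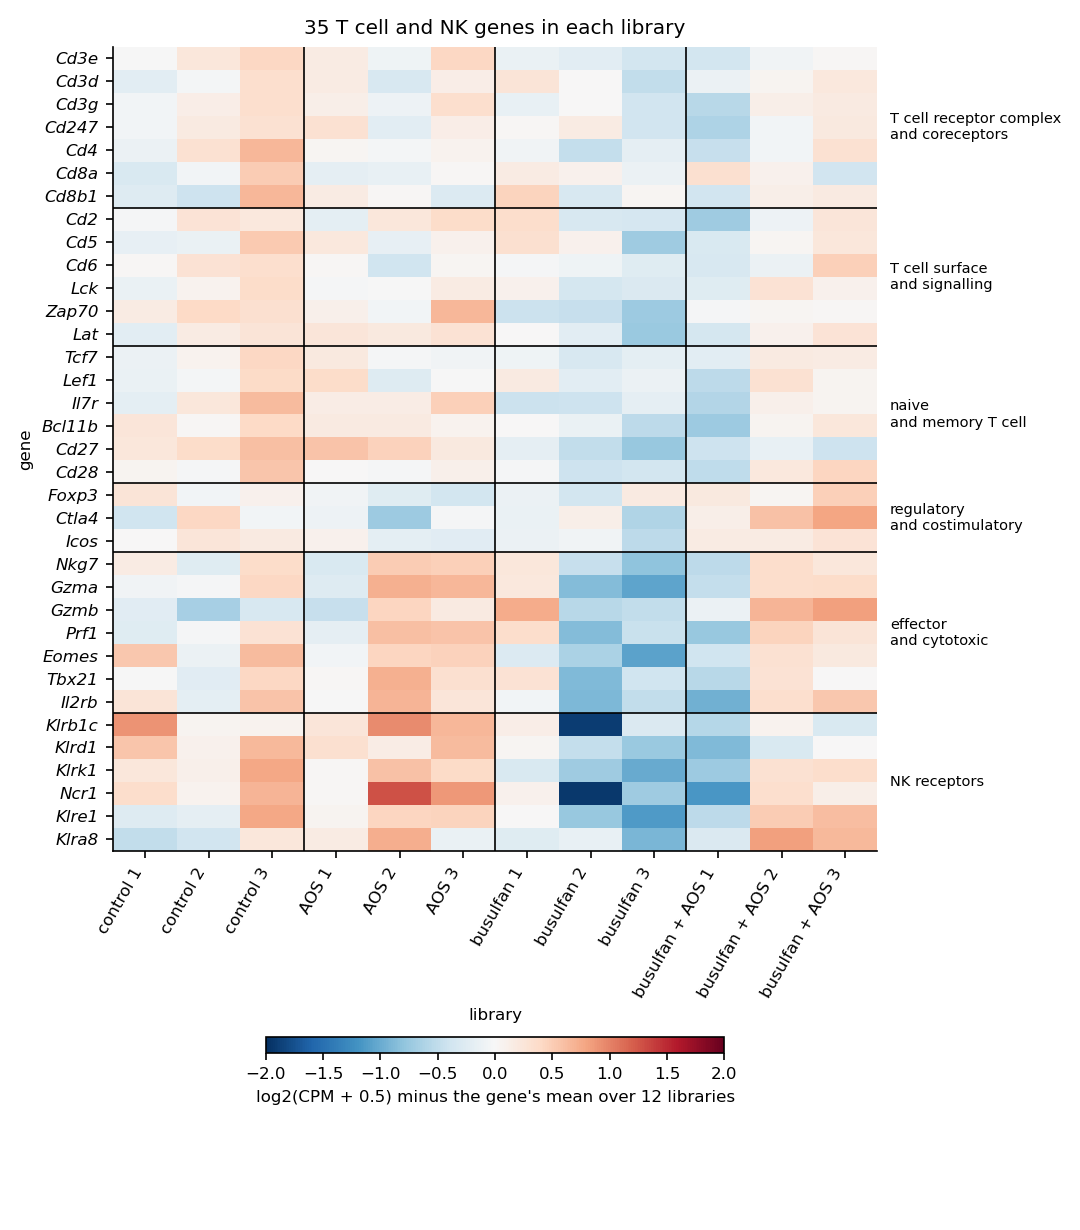
Level of the 35 genes (rows, grouped by role) in the 12 libraries (columns), as log2(CPM + 0.5) minus each gene's mean over the 12 libraries. Red is above and blue below that mean. The darkest blue cells are effector and NK genes in busulfan libraries 2 and 3 and in combined library 1, and Cd27 is below its mean in all 6 libraries with busulfan and above it in all 6 without.

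Of the 35 genes, 3 were lower when the 6 libraries with busulfan were set against the 6 without it, namely Cd27, Zap70 and Klrd1. No member rose. Cd27, a costimulatory receptor of T cells, NK cells and some B cells, had a log2 fold change of -0.90 (SE 0.15, edgeR adjusted p = 0.00616). Zap70, the kinase that binds the activated T cell receptor, changed by -0.59 (SE 0.14, edgeR adjusted p = 0.0218), and Klrd1 (CD94), a partner chain of the NKG2 receptors of NK cells, by -0.86 (SE 0.22, edgeR adjusted p = 0.0329). These 3 genes come from 3 different role groups. Called lower were thus 8.57% of the members, against 4.81% of all 15863 genes tested, and in either direction 8.57% against 11.8%. The share called was near that of all genes. Of all genes, 763 were called lower and 1114 higher, and with upper-quartile factors 1092 and 767. These factors left the 3 members called.

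The promoters of Cd27 and Zap70 are shown as those of called members, and for Klrd1 none is printed. The sequences are the 250 bases before an annotated start, from RefSeq (GRCm38.p6), 5′ to 3′ in the gene's own direction, for Cd27 on the minus strand of chromosome 6 and for 2 of the 3 annotated starts of Zap70 on the plus strand of chromosome 1. Capitals mark matches on either strand to TGTGGT (the core bound by RUNX factors), CAGGAAG (ETS factors), CTTTGA (TCF and LEF factors) or AGGTGT (T-box factors such as Tbx21 and Eomes), which do not overlap here. The third Zap70 window, at chr1:36778734-36778983, holds none of them and is not printed.
Cd27, chr6:125237028-125237277: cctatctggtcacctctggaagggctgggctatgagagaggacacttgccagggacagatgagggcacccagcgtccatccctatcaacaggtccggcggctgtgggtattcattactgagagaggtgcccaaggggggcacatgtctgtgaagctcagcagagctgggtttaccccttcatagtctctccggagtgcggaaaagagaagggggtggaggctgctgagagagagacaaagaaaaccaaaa
Zap70, chr1:36761548-36761797: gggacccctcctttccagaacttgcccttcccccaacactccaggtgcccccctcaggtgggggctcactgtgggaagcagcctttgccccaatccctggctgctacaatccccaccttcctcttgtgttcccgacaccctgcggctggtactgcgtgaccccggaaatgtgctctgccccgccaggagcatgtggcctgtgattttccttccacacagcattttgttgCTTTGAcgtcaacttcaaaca
Zap70, chr1:36764265-36764514: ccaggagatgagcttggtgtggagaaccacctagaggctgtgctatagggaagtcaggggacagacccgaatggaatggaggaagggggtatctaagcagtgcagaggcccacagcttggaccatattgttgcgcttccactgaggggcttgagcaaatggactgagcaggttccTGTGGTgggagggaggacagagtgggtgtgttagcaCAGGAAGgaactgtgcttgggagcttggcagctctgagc

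The Cd27 window holds none of these letters, the first Zap70 window holds 1 TCF/LEF match, the second 1 match each of RUNX and ETS, and the third none. Promoter windows were matched for 27 of the 35 members. The RUNX core was present in 11 of their 38 windows and in 14% of all 32851 windows, and the ETS core in 11 of 38 and 10.8%. The T-box letters were present in 9 of 38 windows and 11.8% of all, and the TCF/LEF letters in 4 of 38 and 13.8%. These are matches of letters and not sites.

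The levels of Cd27 were 4.58, 5.11 and 6.09 CPM in controls and 5.94, 5.51 and 4.47 CPM with AOS. They were 3.35, 2.61 and 2.08 CPM after busulfan and 2.75, 3.41 and 2.77 CPM with both. Each of the 6 libraries with busulfan was below each of the 6 without it. Klrd1 measured 5.96, 4.20 and 6.39 CPM in untreated lung, 4.99, 4.36 and 6.30 CPM under AOS alone, 4.01, 2.67 and 2.14 CPM under busulfan alone and 1.88, 3.05 and 3.95 CPM in the combined group. Its 6 libraries with busulfan were also all below the 6 without, by a narrow margin (4.01 against 4.20 CPM). These 2 members, 5.71% of the 35, were the ones without overlap, against 2.61% of all genes tested. Zap70 measured 7.05, 8.39 and 7.86 CPM in untreated lung, 6.72, 5.94 and 10.1 CPM under AOS alone, 4.48, 4.37 and 3.55 CPM under busulfan alone and 6.07, 6.40 and 6.30 CPM in the combined group. Busulfan alone gave its lowest values, and the combined group overlapped the AOS group. Leaving out any of the 12 libraries kept the call of Cd27. The call of Zap70 was lost when control replicate 2 or busulfan replicate 3 was dropped (edgeR adjusted p = 0.0528 and 0.0506). The call of Klrd1 was lost when any 1 of 8 libraries was dropped, namely replicates 1 and 3 of control and of AOS, replicates 2 and 3 of busulfan, and replicates 1 and 2 of the combined group (edgeR adjusted p from 0.0537 to 0.0719).

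**Figure D2:**
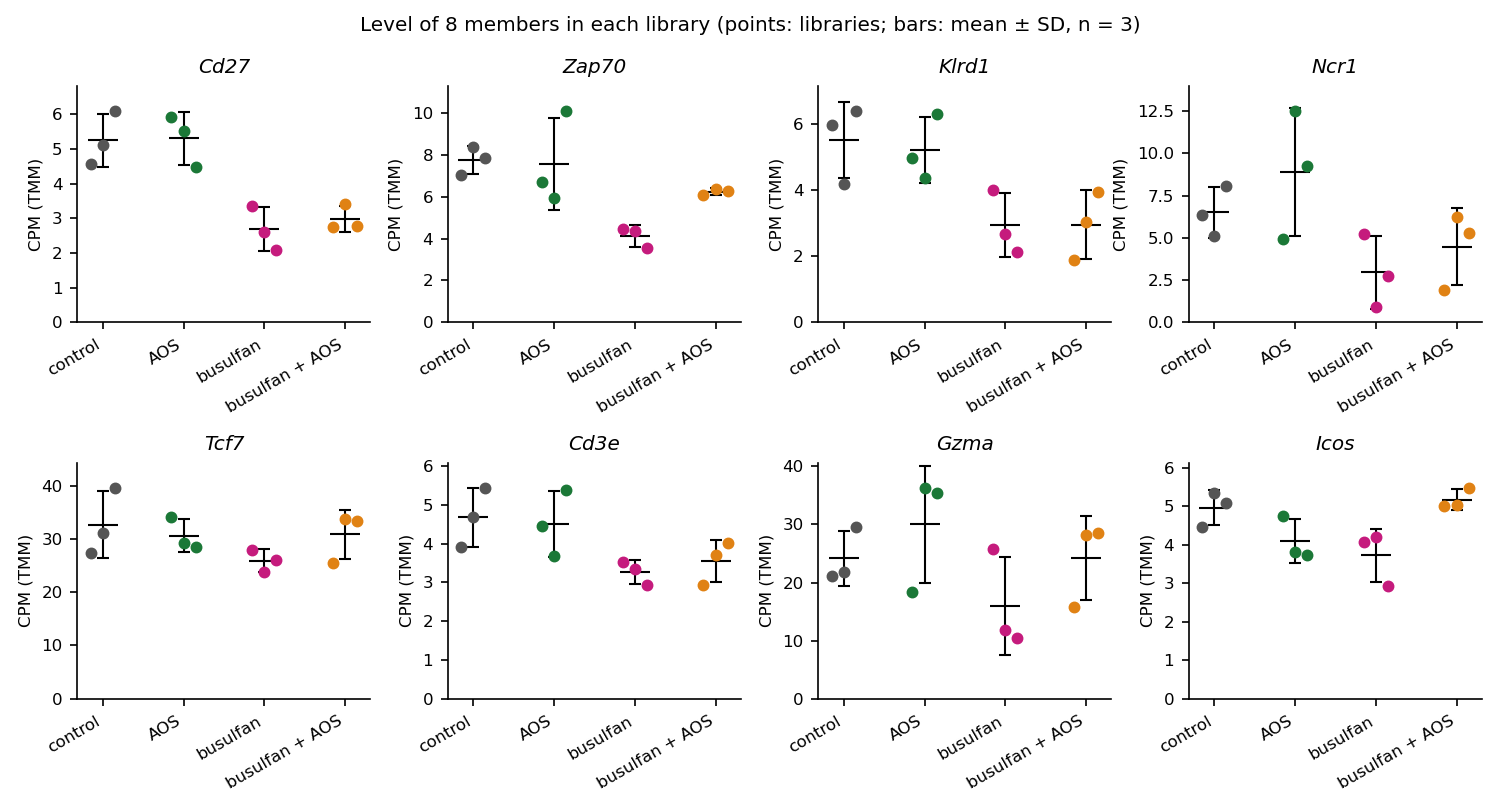
Level of 8 genes in CPM by group, with a point for each library and bars for the mean ± SD (n = 3). Cd27 and Klrd1 do not overlap between the libraries with and without busulfan, Zap70 is lowest after busulfan alone, and Ncr1 and Gzma range widely within the AOS group and both groups that received busulfan.

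Over all 35 members the median log2 fold change in this comparison of 6 with 6 was -0.32, against -0.01 over all genes tested, and 30 of 35 were below zero against 52.2% of all genes. The members share cells, so these are not 35 separate observations. The order of the role groups by median was NK receptors (-0.79), effector and cytotoxic genes (-0.45), naive and memory genes (-0.29), the T cell receptor complex (-0.22), surface and signalling genes (-0.20), and regulatory and costimulatory genes (0.20). At an unadjusted p under 0.05, all 15863 genes tested gave 2171 lower and 2465 higher, 29.2% in either direction. Of the members, 9 were lower and 0 higher at that p, 25.7% in either direction. Of these 9, 4 were NK receptors (Klrd1, Klrk1, Klrb1c and Ncr1), 2 were naive and memory genes (Cd27 and Il7r), and 1 each came from the receptor complex (Cd3e), signalling (Zap70) and effector genes (Eomes).

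Among the NK receptors, 1 of 6 passed over all genes (Klrd1) and 6 of 6 had a negative estimate. Klrk1 encodes NKG2D, an activating receptor for stress ligands. It measured 8.01, 7.30 and 12 CPM in untreated lung, 6.90, 10.4 and 8.99 CPM under AOS alone, 5.38, 3.95 and 3.13 CPM under busulfan alone and 3.88, 8.44 and 8.83 CPM in the combined group. Its log2 fold change over 6 against 6 was -0.72 (SE 0.23, edgeR adjusted p = 0.0706), and 2 combined libraries lay within the range of the libraries without busulfan. Ncr1 encodes NKp46, the activating receptor that defines NK cells across mammals. It measured 6.33, 5.11 and 8.10 CPM in untreated lung, 4.93, 12.5 and 9.24 CPM under AOS alone, 5.20, 0.911 and 2.76 CPM under busulfan alone and 1.88, 6.22 and 5.30 CPM in the combined group. Klrb1c, which encodes the receptor known as NK1.1 in some strains, measured 5.90, 3.10 and 3.13 CPM in untreated lung, 3.57, 6.12 and 4.96 CPM under AOS alone, 3.29, 0.425 and 2.33 CPM under busulfan alone and 1.82, 3.11 and 2.30 CPM in the combined group. The 2 genes had adjusted p = 0.118 and 0.117 by edgeR, with the largest estimates of the members (-1.06, SE 0.41, and -1.01, SE 0.39). Both were chosen for fold changes after their values were seen. Busulfan replicate 2 was lowest for both. Klre1, a receptor encoded in the same complex, ranged from 0.735 CPM in busulfan replicate 3 to 4.14 CPM in control replicate 3. Klra8, the activating receptor Ly49H, ranged from 0.184 CPM in busulfan replicate 3 to 1.79 CPM in combined replicate 2, and 3 counts equal 0.175 to 0.185 CPM. Klra8 belongs to the Ly49 family of closely similar genes. Its counts, like those of Klrb1c, were not whole in every library, so the split of reads among copies is uncertain. Whether animals of the labelled strain, IRC, carry both genes as in the mm10 build was not tested.

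Among the 7 effector and cytotoxic genes, 0 passed over all genes by edgeR, 1 was lower at an unadjusted p under 0.05 (Eomes), and DESeq2 called 1 (Eomes). Gzma measured 21.1, 21.8 and 29.5 CPM in untreated lung, 18.4, 36.3 and 35.4 CPM under AOS alone, 25.7, 11.9 and 10.4 CPM under busulfan alone and 15.8, 28.2 and 28.6 CPM in the combined group. Prf1, which encodes perforin, the pore-forming protein of cytotoxic granules, measured 2.53, 3.04 and 3.90 CPM in untreated lung, 2.67, 4.97 and 4.83 CPM under AOS alone, 4.06, 1.46 and 2.14 CPM under busulfan alone and 1.63, 4.37 and 3.77 CPM in the combined group. For both genes 3 of the 6 libraries with busulfan were below all 6 without it, namely busulfan replicates 2 and 3 and combined replicate 1, and the other 3 lay within their range. Gzmb, which encodes granzyme B, had its highest values in libraries with busulfan. It measured 3.34 ± 0.588 CPM in untreated lung, 4.88 ± 1.60 under AOS alone, 4.62 ± 2.83 under busulfan alone and 6.68 ± 2.24 in the combined group (SD, n = 3 each), and the combined group lay above all controls while the other groups overlapped. Nkg7, a granule membrane protein, Tbx21, the transcription factor T-bet, and Il2rb, a receptor chain for interleukins 2 and 15, ranged from 3.49 to 9.45, 1.09 to 4.30 and 7.01 to 22.9 CPM over the 12 libraries.

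Effector and NK genes varied widely among libraries of 1 group. The median SD over 3 libraries, on the scale of log2(CPM + 0.5), was 0.31 for effector genes in controls, 0.44 with AOS, 0.59 after busulfan and 0.48 in the combined group. For NK receptor genes it was 0.37, 0.32, 0.50 and 0.60 in the same order, for naive and memory genes 0.27, 0.16, 0.21 and 0.41, and for all genes tested 0.13, 0.12, 0.15 and 0.14, a comparison not matched for depth of counts. Whether these spreads differ between groups was not tested. Of the 35 members, 8 had their lowest value in busulfan replicate 2, 13 in busulfan replicate 3 and 9 in combined replicate 1. Summed over the 6 NK receptors, these 3 libraries held 9.72, 11.3 and 11.4 CPM, and the other 3 with busulfan held 20.7 (busulfan replicate 1), 26.0 and 25.6 CPM (combined replicates 2 and 3). Without busulfan the sum was 22.1 to 38.1 CPM.

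**Figure D3:**
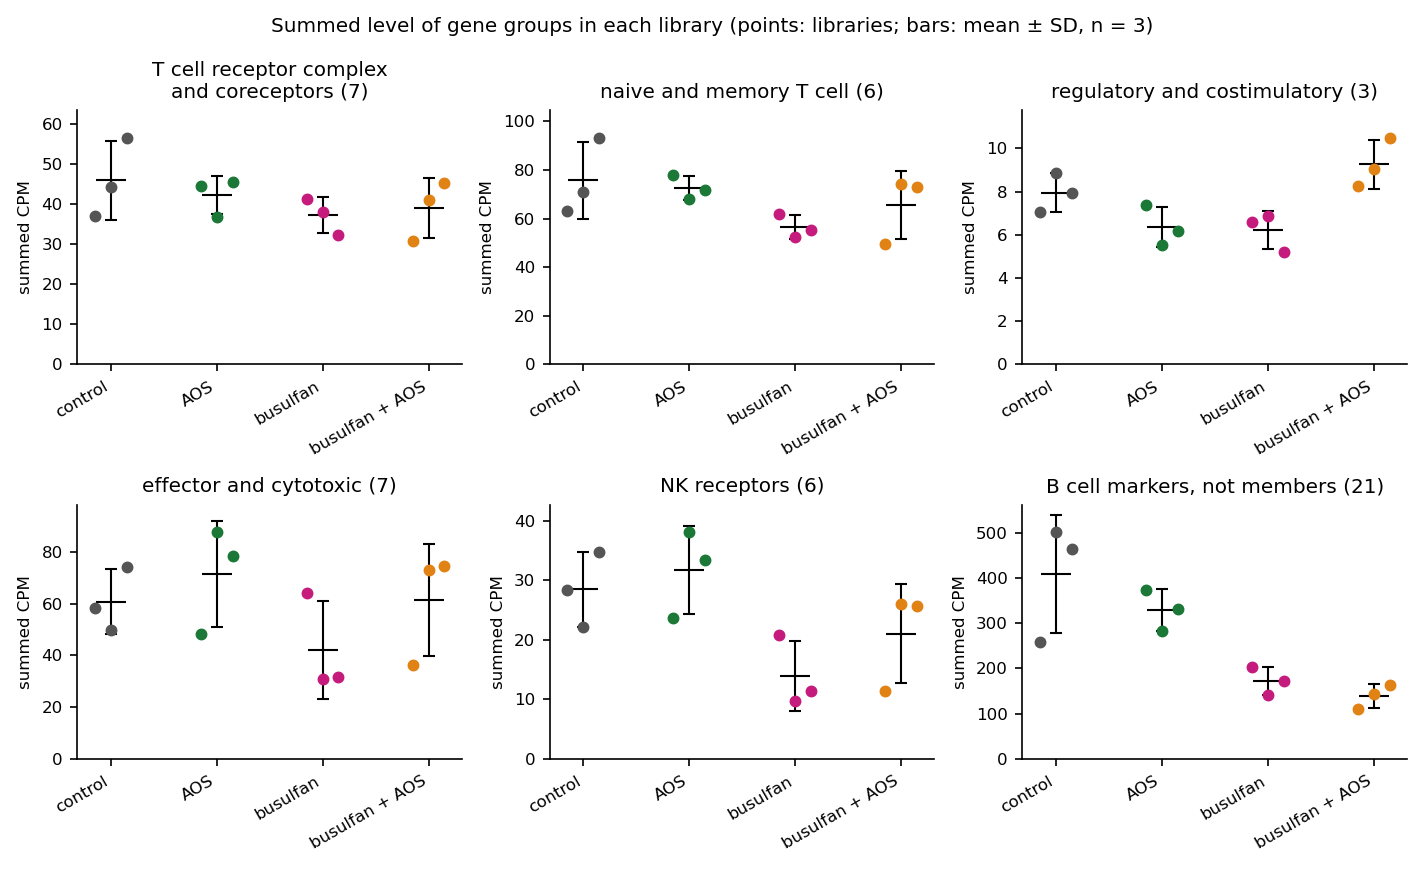
Summed CPM of 5 groups of members and of 21 B cell markers that are not members, by group, with a point for each library and bars for the mean ± SD (n = 3). NK receptor sums run from 9.72 to 26.0 CPM with busulfan and from 22.1 to 38.1 without, while the sums of the T cell receptor complex overlap between all groups.

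The 7 genes of the T cell receptor complex and coreceptors held 37.1 to 56.7 CPM in controls, 36.8 to 45.5 with AOS, 32.4 to 41.4 after busulfan and 30.9 to 45.3 with both, and 0 of 7 passed by edgeR or DESeq2. Cd3e, a signalling chain of the receptor, measured 3.92, 4.68 and 5.44 CPM in untreated lung, 4.46, 3.69 and 5.38 CPM under AOS alone, 3.53, 3.34 and 2.94 CPM under busulfan alone and 2.94, 3.71 and 4.01 CPM in the combined group. Busulfan alone was below all libraries without the drug, and the combined group overlapped them. Cd4, the coreceptor of helper T cells, measured 8.07, 11 and 14.1 CPM in untreated lung, 8.98, 8.54 and 9.24 CPM under AOS alone, 8.31, 6.19 and 7.66 CPM under busulfan alone and 6.26, 8.44 and 10.9 CPM in the combined group. Cd8a, a chain of the coreceptor of cytotoxic T cells, measured 2.95, 3.59 and 5.56 CPM in untreated lung, 3.27, 3.33 and 3.85 CPM under AOS alone, 4.30, 4.01 and 3.43 CPM under busulfan alone and 4.82, 4.01 and 2.77 CPM in the combined group. Cd8a overlapped between all 4 groups, and so did Cd4 except that busulfan alone lay below AOS alone. The ratio of summed NK receptor to summed T cell receptor complex CPM, a description with no test, was 0.625 ± 0.134 in untreated lung, 0.767 ± 0.254 under AOS alone, 0.368 ± 0.123 under busulfan alone and 0.522 ± 0.137 in the combined group (SD, n = 3 each). Single libraries ranged from 0.256 (busulfan replicate 2) to 1.04 (AOS replicate 2), and busulfan alone lay below AOS alone without overlap.

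Of the 6 naive and memory genes, Cd27 was called and 5 were not. Summed naive and memory CPM over summed receptor complex CPM was 1.65 ± 0.0478 in untreated lung, 1.72 ± 0.14 under AOS alone, 1.53 ± 0.171 under busulfan alone and 1.68 ± 0.119 in the combined group (SD, n = 3 each), with overlap. Lef1, a transcription factor of naive T cells and partner of Tcf7, measured 8.25, 8.88 and 12.1 CPM in untreated lung, 11.9, 7.57 and 9.05 CPM under AOS alone, 10.4, 7.83 and 8.33 CPM under busulfan alone and 6.20, 11.4 and 9.54 CPM in the combined group. Tcf7 measured 32.6 ± 6.28 CPM in untreated lung, 30.6 ± 3.17 under AOS alone, 25.9 ± 2.12 under busulfan alone and 30.8 ± 4.64 in the combined group (SD, n = 3 each). Lef1 overlapped between all 4 groups, and Tcf7 did so except that busulfan alone lay just below AOS alone. Il7r, the receptor for the survival factor of naive T cells, measured 11.6, 15.8 and 21.1 CPM in untreated lung, 15, 15 and 18.8 CPM under AOS alone, 9.86, 9.90 and 11.8 CPM under busulfan alone and 8.77, 14.4 and 14 CPM in the combined group. The libraries with and without busulfan overlapped through control replicate 1, and the gene missed the threshold (edgeR adjusted p = 0.0747), and DESeq2 called it lower.

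Each arm was also compared alone. Busulfan against control, and the combined against the AOS group, share no library. By edgeR 0 of 35 members passed in either, where 1.21% and 2.30% of all genes did. At an unadjusted p under 0.05 there were 9 members lower and 0 higher without AOS (25.7%, against 18.7% of all genes in either direction). With AOS there were 2 lower and 2 higher (11.4% against 20.5%). Of all 15863 genes, 1433 were lower and 1531 higher without AOS, and 1487 lower and 1767 higher with it. DESeq2 called 4 members lower without AOS (Cd27, Zap70, Eomes and Klrk1) and 1 with AOS (Cd27), and limma-voom called 0 in both. Without AOS the log2 fold changes were -0.91 for Zap70 (SE 0.20, edgeR adjusted p = 0.0563), -0.97 for Cd27 (SE 0.21, 0.0589), -1.22 for Eomes (SE 0.35, 0.117) and -1.13 for Klrk1 (SE 0.33, 0.123). Leaving out AOS replicate 3 brought Zap70 under the threshold (edgeR adjusted p = 0.0283). With AOS they were -0.83 for Cd27 (SE 0.21, edgeR adjusted p = 0.0646), -0.82 for Klrd1 (SE 0.31, 0.177), 0.97 for Ctla4 (SE 0.39, 0.192) and 0.68 for Foxp3 (SE 0.30, 0.235). The median over the members was -0.41 without AOS and -0.22 with it, against -0.00 and -0.01 over all genes.

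**Figure D4:**
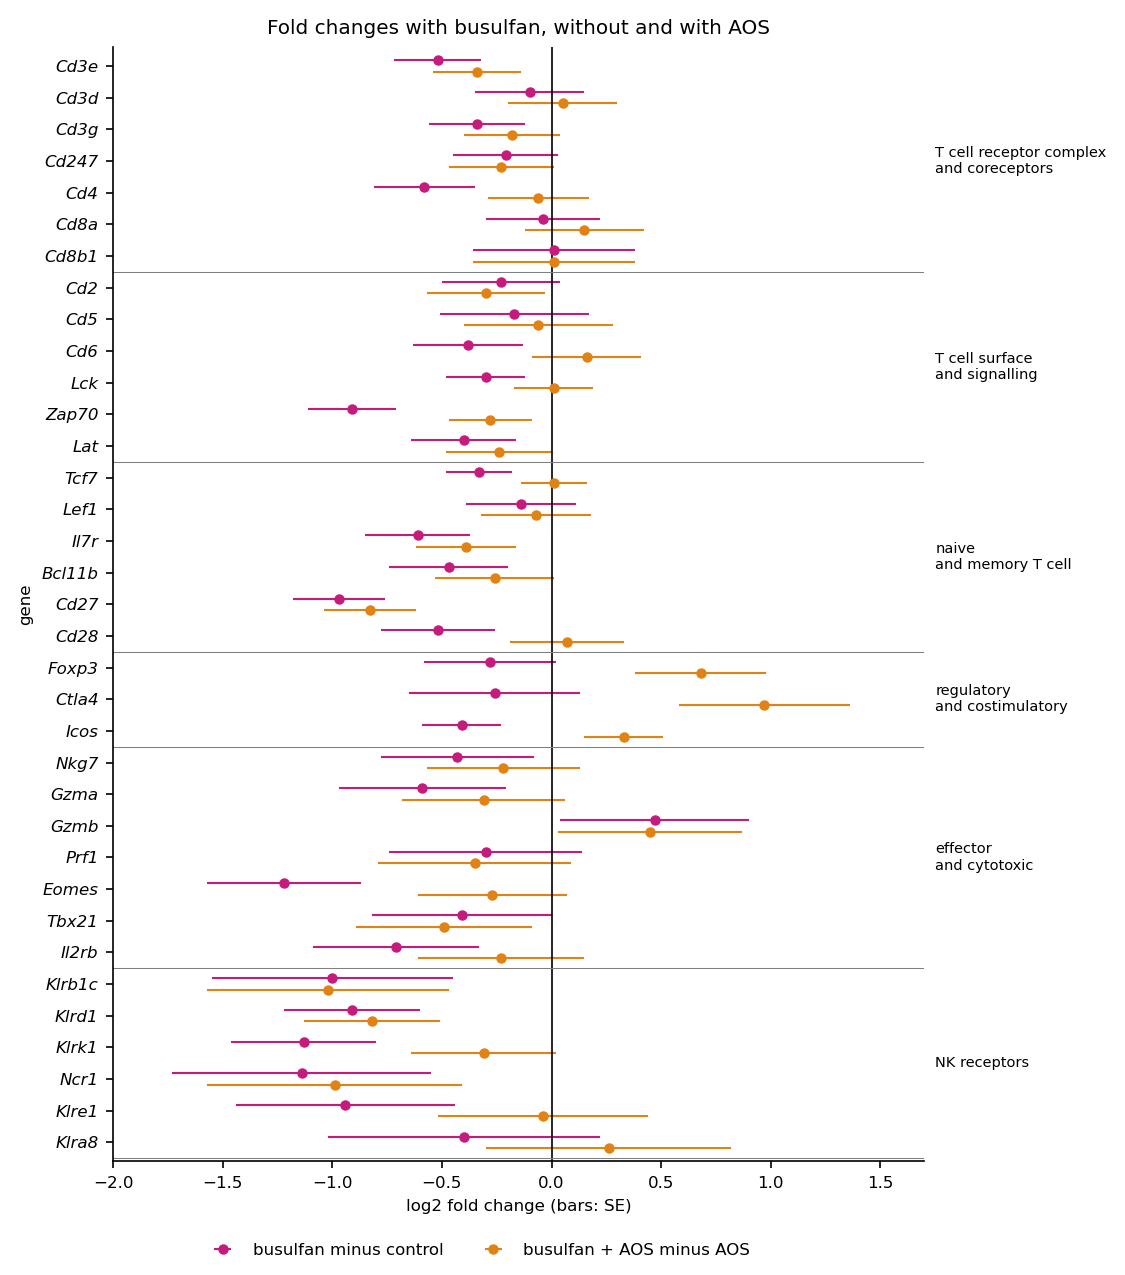
Log2 fold change (points) with its SE (bars) of each member for busulfan minus control and for busulfan + AOS minus AOS. The 6 NK receptors lie below zero without AOS and 5 of 6 do with it, and Foxp3, Ctla4 and Icos lie below zero without AOS and above it with AOS.

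AOS itself was examined in the comparisons of AOS with control, of the combined group with busulfan, and of both averaged. By edgeR, DESeq2 and limma-voom 0 of 35 members passed in each, and by edgeR 0% of all genes did. At an unadjusted p under 0.05 there were 0 members for AOS against control (4.05% of all genes), 6 higher and 0 lower for the combined group against busulfan (17.1%, against 6.34% of all genes), and 1 higher for the average (2.86% against 5.34%). These shares of all genes count either direction. Of all 15863 genes, 553 were higher and 453 lower for the combined group against busulfan, and 405 higher and 442 lower for the average. Against control the smallest p-values were those of Icos (-0.28, SE 0.18), Foxp3 (-0.47, SE 0.30), Cd6 (-0.36, SE 0.25) and Cd4 (-0.31, SE 0.23), all with an edgeR adjusted p = 0.999. Cd6 is an adhesion receptor of T cells. For the combined group against busulfan they were those of Zap70 (0.60, SE 0.20), Icos (0.47, SE 0.18), Eomes (0.85, SE 0.35) and Klra8 (1.41, SE 0.60), with an edgeR adjusted p = 0.769. For the average they were those of Klra8 (1.09, SE 0.42), Zap70 (0.28, SE 0.14), Gzmb (0.54, SE 0.30) and Klre1 (0.60, SE 0.35), with an edgeR adjusted p = 0.855. The comparison of the combined group with busulfan shares libraries with that against AOS, so the 2 sets of values are not independent. The median over the members was 0.26 for the combined group against busulfan and -0.04 for AOS against control.

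Whether the effect of busulfan differed with AOS was tested by the interaction. By edgeR, DESeq2 and limma-voom 0 of 35 members passed, as did 0% of all genes by edgeR. At an unadjusted p under 0.05, 413 of all 15863 genes had a positive and 347 a negative interaction (4.79% in either direction). Of the members, 4 had a positive and 0 a negative one (11.4%). These were Icos (0.74, SE 0.25), Zap70 (0.63, SE 0.27), Foxp3 (0.95, SE 0.42) and Ctla4 (1.22, SE 0.55), each with an edgeR adjusted p = 0.989. With Icos, Foxp3 and Ctla4 they include all 3 genes of the role group named regulatory and costimulatory. The costimulatory receptor genes Cd28 (0.59, SE 0.36) and Cd27 (0.14, SE 0.30) were grouped with naive and memory genes. Neither was among these 4. Icos, a costimulatory receptor of activated helper T cells, measured 4.46, 5.35 and 5.09 CPM in untreated lung, 4.76, 3.82 and 3.73 CPM under AOS alone, 4.06, 4.19 and 2.94 CPM under busulfan alone and 5.01, 5.03 and 5.48 CPM in the combined group. Ctla4, an inhibitory receptor of activated and regulatory T cells, measured 1.20, 2.49 and 1.66 CPM in untreated lung, 1.60, 0.848 and 1.71 CPM under AOS alone, 1.55, 1.94 and 0.980 CPM under busulfan alone and 1.94, 2.87 and 3.36 CPM in the combined group. Foxp3 measured 1.39, 1.03 and 1.18 CPM in untreated lung, 1.01, 0.848 and 0.734 CPM under AOS alone, 0.956, 0.729 and 1.29 CPM under busulfan alone and 1.31, 1.14 and 1.71 CPM in the combined group. For Icos, Ctla4 and Foxp3 the combined group had the highest mean, and its 3 libraries lay above the 3 with AOS alone. These genes were named for their interaction p, which uses the same values. How many of all genes separate 3 libraries from 3 was not computed, here or for the other members. Of 9 tested other genes of regulatory T cells, such as Il2ra and Ikzf2, 0 passed the interaction test and 0 had an unadjusted p under 0.05, with a median of 0.02 and 4 of 9 below zero. Over the 6 libraries with busulfan against the 6 without, 0 passed, with a median of -0.12.

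Other genes of the T and NK cell pathways were taken from lists and examined over the 6 libraries with busulfan against the 6 without. Constant chains of the T cell receptor were not analysed here. Of 29 genes listed for T cell receptor signalling, 7 fell and 1 rose, with a median log2 fold change of -0.41, where 4.81% of all genes were called lower. The 29 include Cd3eap, which encodes a subunit of RNA polymerase I. Without control replicate 2 the number called in either direction dropped from 8 to 5, and without busulfan replicate 3 to 4. Ptprcap, a partner of the phosphatase CD45, went from 7.39 ± 1.37 CPM in controls to 3.67 ± 1.07 after busulfan, and from 7.36 ± 0.523 with AOS to 3.67 ± 0.859 with both (SD, n = 3 each, edgeR adjusted p = 0.00688). The adaptor gene Grap2 (-0.82, SE 0.16), the exchange factor gene Rasgrp1 (-0.82, SE 0.18) and the signalling gene Malt1 (-0.40, SE 0.09) were also called lower. The gene that rose was the phospholipase gene Plcg1 (0.23, SE 0.06), named here after its value was seen, which is made in many cell types and lost its call in 12 of 19 alternatives. The 13 genes listed for naive T cell homing summed to between 1173 and 1547 CPM in each library. The T cell receptor complex held 30.9 to 56.7 CPM. Which cells of the lung made the 13 transcripts was not tested. Of these 13 genes, 4 fell and 0 rose, with a median of -0.28. Among them were the chemokine receptor gene Ccr7 (-1.27, SE 0.22), Klf2, a factor that keeps lymphocytes circulating (-0.60, SE 0.12), and Gpr183, a receptor for oxysterols (-0.83, SE 0.20), whose call was lost in 4 of 19 alternatives, each a single library left out (control replicate 2, AOS replicate 1, busulfan replicate 3 or combined replicate 2, edgeR adjusted p up to 0.0531). Of 14 tested genes of helper subsets and cytokines, 4 fell and 1 rose. The 5 calls became 2 without control replicate 2 or busulfan replicate 3, and 3 without control replicate 3, AOS replicate 1 or 2, busulfan replicate 2 or combined replicate 2. Cxcr5, the receptor that draws cells to follicles, was 2.83-fold lower. Stat4, a transcription factor of helper subsets, had a log2 fold change of -0.76 (SE 0.20) and lost its call in 8 of 19 alternatives, among them the omission of control replicate 2 or 3, any AOS replicate, or busulfan replicate 2 or 3 (edgeR adjusted p up to 0.0726). Rora, a nuclear receptor, rose by 0.42 (SE 0.09). Of 17 tested other cytotoxic genes 1 fell, the protease gene Ctsw (-0.86, SE 0.19). Of 27 tested other NK genes 1 fell, Klra4 of the Ly49 family (-1.42, SE 0.41, edgeR adjusted p = 0.0498). Klra4 stayed under the threshold in 6 of 19 alternatives. Of 8 tested checkpoint receptors 0 passed. The shares of the cytotoxic and NK lists called lower, 1 of 17 and 1 of 27, were near the 4.81% of all genes. Their median log2 fold changes were 0.08 and -0.42, with 7 of 17 and 24 of 27 genes below zero. Ctsc of the cytotoxic list averaged 365 CPM over the 12 libraries, and Il18r1 of the NK list 223 CPM. Gzma averaged 23.6 CPM. Which cells of the lung made the transcripts of these 2 lists was not tested. At an unadjusted edgeR p under 0.05, 3 cytotoxic genes were lower and 1 higher, and 11 NK genes were lower and 1 higher. Of all 15863 genes, 2171 were lower and 2465 higher at that p.

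B cells make several of these transcripts too, among them Ptprcap, Malt1, Ccr7, Klf2, Gpr183 and Cxcr5, and some B cells carry Cd27. Of 21 B cell markers 20 fell in the same comparison, with a median log2 fold change of -1.52, and their summed level was 259 to 502 CPM without busulfan and 110 to 202 CPM with it. Their part in the fall of Cd27 and of the shared genes was not tested. Summed red cell transcripts were 2866 to 4745 CPM in the combined group and 6226 to 12588 CPM in the others, and their part in the NK receptor levels was not tested. In the 3 libraries with the lowest NK receptor sums they were 6545, 11297 and 4745 CPM (busulfan replicates 2 and 3 and combined replicate 1). Of genes that define thymocytes, Ptcra was at 0 to 0.125 CPM, Dntt at 0 to 0.545 CPM and Rag1 at 0 to 1.39 CPM. Summed skeletal muscle transcripts were highest in control replicate 2 (4538 CPM) and combined replicate 3 (741 CPM). Without these 2 libraries Cd27 and Klrd1 were called lower and Zap70 was not (edgeR adjusted p = 0.0798).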

How the data were processed

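RNA from lung was sequenced in 12 libraries, 3 in each of 4 groups taken from the sample titles. The authors deposited 1 table with estimated counts per gene and library, not scaled, and FPKM values, read as FPKM from their values because no deposited header names it. Per the submitters' processing notes, the genome build was mm10. Aligner, counting program and use of strand were not given in the sources used here, so antisense or overlapping reads cannot be told apart. The authors' group means were not used. The members, gene lists and tests were chosen with earlier results of these data known.

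Estimated counts were rounded (75.9 to 77.1% of values per library were whole as deposited). Genes were filtered with filterByExpr and scaled by TMM (factors 0.963 to 1.03), leaving 15863. All 12 libraries entered 1 negative binomial fit, with each group's mean as a coefficient (common biological coefficient of variation 0.229). Contrasts used the quasi-likelihood test of edgeR 4.0.16 (R 4.3.3) and were called at a Benjamini-Hochberg adjusted p under 0.05 over all genes. CPM are TMM-scaled. SEs are the absolute log2 fold change divided by the square root of F. In text, fold changes were given for members called, or otherwise for the 4 with the smallest p, and for up to 4 called genes of each other list. Some genes that this rule names are not reported here. Alternatives were DESeq2 1.42.0, limma-voom (limma 3.58.1), upper-quartile factors, no low-count filter, at least 1 CPM in 3 libraries, the replicate number as a block, only the groups compared, and each library left out. Leaving out the 2 libraries with the most muscle transcripts was added after the data were seen. Scripts were tested on simulated data. The floor used for an absent gene is 3 counts and reflects counting error alone. No library pair within a group was a copy: chi-square over its degrees of freedom was 17.5 to 38.7. Genes were located by Entrez ID in the RefSeq annotation of GRCm38. Figures used Python 3.11.15 and matplotlib 3.10.9.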

Additional observations from a re-analysis of the deposited data

How the results depend on the processing

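Over the 6 libraries with busulfan against the 6 without, 3 members were called, 6 by DESeq2 (adding Eomes, Klrk1 and Il7r), and 1 to 3 with 1 library left out, the lowest without busulfan replicate 3 (Cd27). For busulfan against control the count was 0, with 4 by DESeq2 and 0 to 1 with 1 library left out. For the combined against the AOS group it was 0, with 1 by DESeq2. In the comparisons of AOS and the interaction it was 0 under every alternative run. The interaction estimates of Cd28 and Cd27 were not followed through the alternatives. No other fold change written in the text for a gene changed sign under the alternatives run. Some of the other members, whose fold changes are only plotted by arm, did change sign. With upper-quartile factors the members below zero went from 33 to 34 for busulfan against control. They went from 23 to 26 for the combined against the AOS group, and from 30 to 31 for 6 against 6. All genes called ranged from 13 (only the groups compared) to 975 (DESeq2) around 192 for busulfan against control, from 42 to 1245 around 365 for the combined against the AOS group, and from 966 to 2668 around 1877 for 6 against 6. By DESeq2, 10, 29, 13 and 16 genes passed for AOS against control, the combined group against busulfan, the AOS average and the interaction, where edgeR called 0. The cause of these differences was not tested. Upper-quartile factors moved the median of all genes by less than 0.1 (to -0.05 for 6 against 6), and gave 3 members. The labels do not say that a replicate number marks a shared cage, day or litter, so the numbers were not taken to pair libraries. Same-numbered libraries did not deviate together (correlations -0.253 to 0.181, 2 of 18 over 0.1). For different numbers the correlations were -0.319 to 0.27, with 13 of 36 over 0.1. The replicate block gave 3 members, Cd27, Zap70 and Il7r, for 6 against 6, and 0 in the other comparisons. Depth limits precision where a member had few counts, with 3 in the lowest library of Klra8.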
